A study of Mus musculus with 8 samples.

Results

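Immediate early genes are described here through 10 members, Fos, Fosb, Jun, Junb, Jund, Egr1, Atf3, Ier2, Dusp1 and Zfp36. They were taken by symbol from a list of genes that are switched on quickly by stimuli and also by the isolation of cells, and all 10 were present in the table of 24924 genes with counts in all 8 libraries. The libraries were made from total RNA of T cells and microglia sorted from the brains of C57BL/6 mice aged 20 to 22 months. There were 4 groups of 2 libraries each: T cells after interleukin-5 (IL-5), T cells after phosphate-buffered saline (PBS), microglia after IL-5, and microglia after PBS. IL-5, a cytokine best known for sustaining eosinophils, was injected at 2 µg per day for 2 days. The labels name neither the surface markers of the sort nor the mice behind a library, so p-values measure only the spread between these libraries, which may be technical.

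Immediate early genes are transcribed without new protein synthesis when signalling through MAP kinases, calcium or stress pathways activates factors that are already bound near their start sites. Fos and Jun proteins pair through leucine zippers into the AP-1 transcription factor, while other members of the class switch the response off again, either by removing phosphate from the kinases or by speeding the decay of messenger RNA. In microglia and T cells these transcripts mark recent activation, and they are also known to appear when tissue is dissociated and cells are sorted. Whether the transcripts counted here arose in the animal or during isolation was not tested.

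The DNA just upstream of the start sites is shown first because it can carry elements through which such genes are known to respond. Sites more than 250 bases upstream were not searched, so an element not found here may lie further away. Promoter windows from 250 bases before to 50 bases after the RefSeq start were found for 8 of the 10 members, with no entry for Egr1 and Ier2, and both strands were searched. The Jund window has its upstream part at chr8:70697489-70697738 and ends before the GENCODE start of Jund at 70698949, so sites next to that start were not searched. The cyclic AMP response element TGACGTCA was found in 1 of the 8 windows, that of Dusp1, against 1.79% of all 32851 promoters of the same length. The shorter site TGACG, which is part of the full element, was found in 5 of the 8, those of Fos, Fosb, Junb, Atf3 and Dusp1, against 20.8% of all promoters. The letters of the TATA box, TATAAA, were found in the windows of Fos and Junb (13.6% of all promoters). They lay at -33 to -28 from the RefSeq start in Fos, and in Junb at positions 1 to 6 after it, outside the upstream sequence shown. Junb starts further downstream in the GENCODE annotation, at chr8:84978718, so its TATAAA lies upstream of that start. A CArG box, the site of serum response factor, was found in the window of Zfp36 (1.63%). An NF-kB site was found in those of Fos and Fosb (8.46%). The AP-1 site TGAGTCA (5.20%) and the EGR site GCGTGGGCG (0.612%) were in none of the 8. The sequences below are RefSeq sequence of GRCm38.p6 upstream of the start, 5′ to 3′ on the strand of the gene, with the cyclic AMP sites, the TATA box and the CArG box in capitals. They are Fos at chr12:85473640-85473889 (plus strand), Fosb at chr7:19310052-19310295 (minus), Junb at chr8:84978749-84978998 (minus), Dusp1 at chr17:26508520-26508722 (minus) and the CArG box of Zfp36 with its flanks at chr7:28379267-28379296 (minus). A match is a description of these letters and not a measured binding site.
Fos: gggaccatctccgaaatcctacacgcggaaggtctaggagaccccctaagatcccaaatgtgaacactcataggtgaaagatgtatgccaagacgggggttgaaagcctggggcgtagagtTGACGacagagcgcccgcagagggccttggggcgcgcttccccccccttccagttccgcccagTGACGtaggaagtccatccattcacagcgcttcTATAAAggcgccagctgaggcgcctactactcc
Fosb: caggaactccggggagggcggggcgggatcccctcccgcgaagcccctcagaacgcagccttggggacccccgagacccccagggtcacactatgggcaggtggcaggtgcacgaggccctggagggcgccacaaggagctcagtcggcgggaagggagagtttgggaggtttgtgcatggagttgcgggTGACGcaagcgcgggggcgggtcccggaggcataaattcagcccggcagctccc
Junb: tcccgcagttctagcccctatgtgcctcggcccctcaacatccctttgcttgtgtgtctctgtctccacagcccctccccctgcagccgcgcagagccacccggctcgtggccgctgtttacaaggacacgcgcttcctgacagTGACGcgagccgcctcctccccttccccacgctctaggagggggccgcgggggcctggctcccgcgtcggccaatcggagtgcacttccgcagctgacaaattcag
Dusp1: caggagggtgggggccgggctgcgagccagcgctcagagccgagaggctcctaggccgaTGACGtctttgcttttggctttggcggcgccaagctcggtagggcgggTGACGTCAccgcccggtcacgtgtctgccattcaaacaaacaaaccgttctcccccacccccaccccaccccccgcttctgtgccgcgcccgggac
Zfp36 CArG box: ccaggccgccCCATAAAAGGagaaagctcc

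The other end of these transcripts is known for AU-rich elements, the sequence that the protein encoded by Zfp36 binds and that marks a message for rapid decay. The heptamer TATTTAT was present in the longest annotated 3′ untranslated region of 7 of the 10 members (70.0%), against 29.0% of 16027 detected genes and 27.8% of the 8056 detected genes whose untranslated region lay within the members' range of length. Dusp1 and Zfp36 each held 3 copies and Fos held 2, while Junb, Egr1 and Ier2 held 0. Genes with 3 or more copies made up 4.02% of the detected genes. The site with most heptamer bases is shown for the 3 members with more than 1 copy, and the heptamer is in capitals. They lie on GRCm38 at chr12:85477103-85477131 (plus strand) for Fos, chr17:26506159-26506187 (minus) for Dusp1 and chr7:28376966-28376994 (minus) for Zfp36.
Fos site: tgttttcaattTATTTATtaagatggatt
Dusp1 site: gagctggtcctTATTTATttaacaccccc
Zfp36 site: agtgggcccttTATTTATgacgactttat

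Most of the members are also compact genes. Their median span in the GENCODE annotation of GRCm38 was 3852.5 bases, against 21210 bases for the 17916 detected genes with 1 match, and exons covered a median of 85.9% of the span, against 18.9%. Atf3 and Dusp1 went the other way, with GENCODE spans of 47744 and 56539 bases, of which exons covered 4.51% and 5.86%. Their RefSeq promoter windows lie inside these spans. That of Atf3 is at chr1:191183341-191183583, where the span reaches 191218039, and that of Dusp1 at chr17:26508520-26508722, where it reaches 26562128. Counted from the RefSeq start used above, both genes are therefore shorter. The exons of all transcripts together covered the whole span of Jun, Jund, Ier2 and Zfp36. The strand setting of the counting is not given in the sources used here, so reads from genes on the opposite strand cannot be told apart where exons overlap. This touches Junb, whose exons share 173 bases with Prdx2, Dusp1, which shares 11 bases with Ergic1, and the antisense transcripts Junos at Jun (232 bases), Gm11175 at Jund (877 bases) and Gm44710 at Zfp36 (125 bases).

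The libraries held 23536908 to 30423828 gene counts, and levels are given as counts per 1000000 of these (CPM), on which 1 count is worth 0.0329 to 0.0425 CPM. Every member was far above that in every library. Microglial marker genes summed to 405 to 619 CPM in T cells and 13188 to 26304 CPM in microglia, and T cell markers to 4659 to 7749 CPM in T cells and 17.9 to 194 CPM in microglia. Neutrophil genes were abundant in the libraries labelled microglia: the 10 neutrophil markers summed to 0.757 to 38.7 CPM in T cells and 13682 to 17691 CPM in microglia, and S100a8 alone reached 0 to 11.9 CPM in T cells and 5496 to 10490 CPM in microglia. Choroid plexus markers, led by Ttr, summed to 58274 to 114680 CPM in T cells and 35781 to 63716 CPM in microglia. Microglia IL-5 replicate 1 stood apart from the other libraries, with 25.5% of its reads outside genes (15.2% to 19.8% elsewhere) and a TMM scaling factor of 0.608, against 0.781 to 0.818 in the other microglia and 1.31 to 1.38 in T cells.

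Together the members took 0.402% to 0.603% of the gene counts of T cells and 1.08% to 1.29% of those of microglia. Per kilobase of exon, Junb was the most abundant member in both cell types, at 554 ± 91.1 CPM per kilobase in T cells and 1092 ± 57.2 CPM per kilobase in microglia (SD, n = 4 libraries each, both treatments). Fosb was the least abundant, at 2.79 ± 0.556 CPM per kilobase in T cells and 11.4 ± 7.31 CPM per kilobase in microglia. In T cells the order below Junb was Jun at 376, Fos at 306, Jund at 260, Ier2 at 203, Dusp1 at 152, Zfp36 at 121, Egr1 at 28.7 and Atf3 at 25.2 CPM per kilobase. Neighbours in that order overlapped in range except at 2 steps, between Ier2 and Dusp1 and between Zfp36 and Egr1. In microglia the order below Junb was Zfp36 at 806, Jund at 728, Dusp1 at 454, Fos at 443, Jun at 370, Ier2 at 241, Egr1 at 153 and Atf3 at 110 CPM per kilobase. There the ranges separated Junb from Zfp36 and Atf3 from Fosb, and all other neighbours overlapped. Zfp36 thus held rank 7 of the 10 in T cells and rank 2 in microglia, and Jun rank 2 in T cells and rank 6 in microglia.

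**Figure D1:**
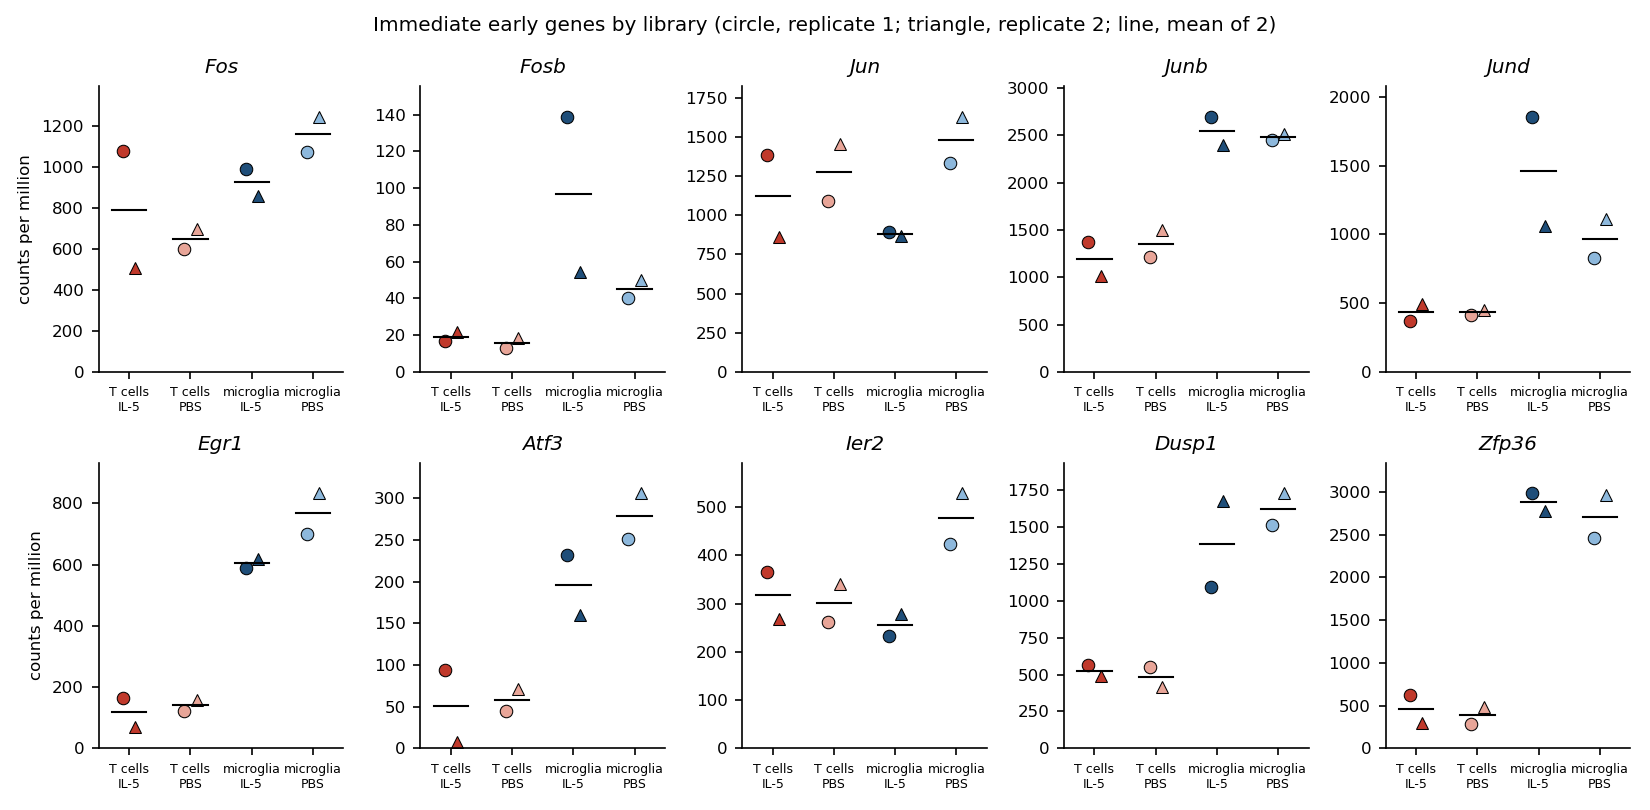
Level of each immediate early gene in every library in CPM (linear axes from 0, one panel per gene), with T cells in red and microglia in blue, and IL-5 darker than PBS. Circles are replicate 1, triangles replicate 2 and lines the mean of both. Zfp36 lay at 290 to 622 in T cells and 2455 to 2985 in microglia, while the ranges of Fos, Jun and Ier2 overlapped between the cell types.

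T cells were compared with microglia over both treatments, a contrast of cell types that the design text of the series names. After TMM scaling, 9 of the 10 members were lower in T cells and 0 were higher by the edgeR quasi-likelihood test with Benjamini-Hochberg adjustment over all genes at a threshold of 0.05, where 19.5% of the 15397 genes tested were called, 1148 of them higher in T cells and 1851 lower. The log2 fold changes ranged from -3.59 for Zfp36 to -0.79 for Jun, the member that missed the threshold. DESeq2 called all 10, where it called 30.9% of genes. The median log2 fold change of the 10 was -2.37, against 0.10 over all genes tested. In bulk RNA of sorted cells, less RNA per cell and fewer cells that carry it cannot be told apart.

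Fos (chr12:85473890-85477273, plus strand) encodes the AP-1 subunit that pairs with Jun proteins. It had 1076 and 506 CPM in T cells after IL-5, 600 and 696 CPM in T cells after PBS, 992 and 858 CPM in microglia after IL-5, and 1072 and 1246 CPM in microglia after PBS. The cell types overlapped in CPM because T cells IL-5 replicate 1 lay as high as microglia, and they separated after TMM scaling. The log2 fold change was -1.39 (SE 0.298, edgeR adjusted p = 0.0110), and scaling by library size alone took it to -0.53 (adjusted p = 0.182). Fos was called in 12 of 17 fits, and the call was also lost with the replicate block (-1.29, edgeR adjusted p = 0.128), in PBS mice alone (-1.61, 0.0527), in IL-5 mice alone (-1.17, 0.132) and without T cells PBS replicate 1 (-1.25, 0.0557).

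Fosb (chr7:19302696-19310051, minus strand), another Fos family subunit, had 16.6 and 21.5 CPM in T cells after IL-5, 13.2 and 18.3 CPM in T cells after PBS, 139 and 54.5 CPM in microglia after IL-5, and 40.4 and 49.9 CPM in microglia after PBS. Every T cell library was below every microglial library. The log2 fold change was -2.82 (SE 0.447, edgeR adjusted p = 0.00262). In PBS mice alone it was -2.29 with an adjusted p of 0.0580 (edgeR). Relative to Fos per kilobase, Fosb stood at 0.582% to 1.60% in T cells and 1.42% to 5.27% in microglia.

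Of the Jun family, which can pair among themselves as well as with Fos proteins, Junb and Jund were lower in T cells. Junb (chr8:84974484-84978718, minus strand) had 1376 and 1011 CPM in T cells after IL-5, 1216 and 1495 CPM in T cells after PBS, 2697 and 2396 CPM in microglia after IL-5, and 2445 and 2512 CPM in microglia after PBS. It showed no overlap between the cell types and a log2 fold change of -1.84 (SE 0.253, edgeR adjusted p = 0.00128). Jund (chr8:70698949-70700616, plus strand) had 373 and 496 CPM in T cells after IL-5, 416 and 449 CPM in T cells after PBS, 1858 and 1059 CPM in microglia after IL-5, and 827 and 1110 CPM in microglia after PBS. Its cell types did not overlap either, and its log2 fold change was -2.33 (SE 0.313, edgeR adjusted p = 0.00115).

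Jun itself (chr4:95049034-95052222, minus strand) had 1382 and 863 CPM in T cells after IL-5, 1090 and 1457 CPM in T cells after PBS, 891 and 867 CPM in microglia after IL-5, and 1335 and 1630 CPM in microglia after PBS. In CPM, 3 of the 4 T cell libraries lay within the range of the microglial libraries, and T cells IL-5 replicate 2 lay just below it. The log2 fold change was -0.79 (SE 0.259, edgeR adjusted p = 0.0634) with TMM scaling and 0.07 with library size alone, and DESeq2 gave an adjusted p of 0.0216 for a log2 fold change of -0.77. Jun was therefore the member whose direction turned on the scaling.

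The balance of the 3 Jun family transcripts is independent of the scaling between libraries, since it is taken within each library. Per kilobase, Jun made up 26.9% to 34.5% of the family in T cells and 10.9% to 22.5% in microglia, with no overlap. Junb made up 43.6% to 47.7% in T cells and 45.7% to 53.7% in microglia, and Jund 17.8% to 29.5% in T cells and 25.1% to 43.4% in microglia, both with overlap. Within microglia the Jun share was 10.9% and 14.0% after IL-5 and 21.2% and 22.5% after PBS, and within T cells it was 34.5% and 26.9% after IL-5 and 30.5% and 33.2% after PBS. The ratio of Fos to Jun per kilobase was 1.06 and 0.795 in T cells after IL-5, 0.746 and 0.647 in T cells after PBS, 1.51 and 1.34 in microglia after IL-5, and 1.09 and 1.04 in microglia after PBS. These shares are described without a test.

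**Figure D2:**
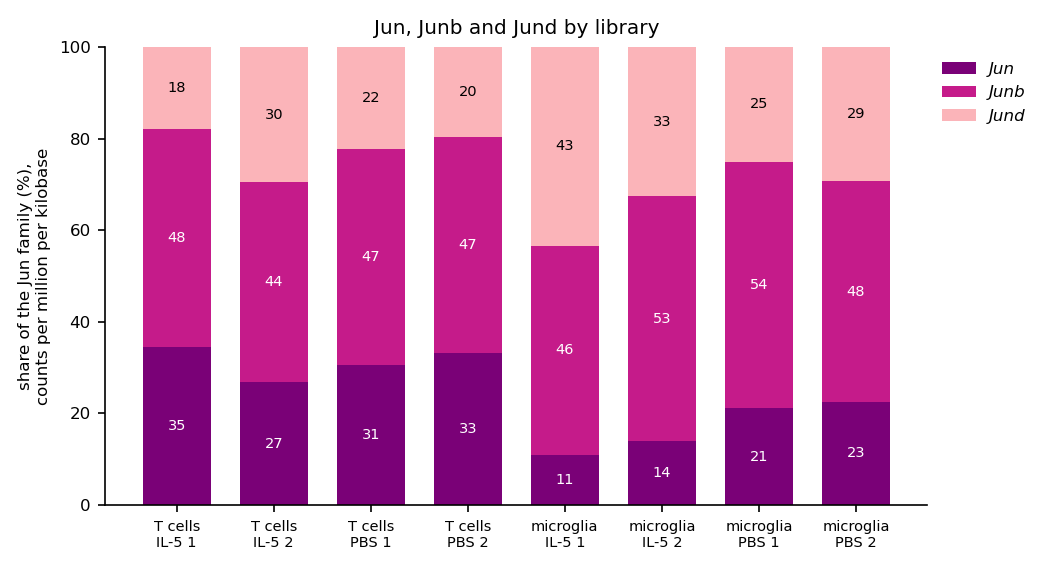
Share of Jun, Junb and Jund in their sum in each library, in percent of CPM per kilobase of exon, with the 4 T cell libraries to the left of the 4 microglial ones. The darkest segment, Jun, spans 26.9% to 34.5% in T cells and 10.9% to 22.5% in microglia.

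The other transcription regulators differed more. Egr1 (chr18:34859823-34864984, plus strand), a zinc finger transcription factor, had 165 and 69.0 CPM in T cells after IL-5, 123 and 158 CPM in T cells after PBS, 590 and 620 CPM in microglia after IL-5, and 701 and 834 CPM in microglia after PBS. No T cell library came near the lowest microglial one. The log2 fold change was -3.25 (SE 0.328, edgeR adjusted p = 0.000250), or 9.54-fold lower in T cells.

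Atf3 (chr1:191170296-191218039, minus strand), a stress-induced leucine zipper factor of the ATF/CREB family, had 93.9 and 7.38 CPM in T cells after IL-5, 44.7 and 70.8 CPM in T cells after PBS, 232 and 160 CPM in microglia after IL-5, and 251 and 306 CPM in microglia after PBS. All T cell libraries were below all microglial ones, although the 2 T cell libraries after IL-5 stood 12.7-fold apart. The log2 fold change was -2.98 (SE 0.678, edgeR adjusted p = 0.0161). Atf3 was called in 7 of 17 fits. The call was lost in PBS mice alone (log2 fold change -3.04, edgeR adjusted p = 0.100), in IL-5 mice alone (-2.92, 0.106), without the filter on low counts (-2.97, 0.107), with the replicate block (-2.51, 0.237) and when any single library other than the T cells after IL-5 was left out. Leaving out 1 library gave -4.30 to -2.44.

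Ier2 (chr8:84661331-84662852, minus strand), which encodes a short nuclear protein, had 366 and 269 CPM in T cells after IL-5, 262 and 341 CPM in T cells after PBS, 232 and 279 CPM in microglia after IL-5, and 424 and 529 CPM in microglia after PBS. The cell types overlapped in CPM, and in the IL-5 mice the T cell replicate 1 exceeded both microglial libraries. The TMM-scaled log2 fold change was -1.01 (SE 0.232, edgeR adjusted p = 0.0145). Ier2 was called in 10 of 17 fits. With library size alone it was -0.17 (edgeR adjusted p = 0.617), in IL-5 mice alone -0.60 (0.318) and with the replicate block -0.96 (0.172). The call was also lost without microglia PBS replicate 2 (-0.95, 0.0712), T cells IL-5 replicate 2 (-0.82, 0.0959), T cells PBS replicate 1 (-0.84, 0.103) or T cells PBS replicate 2 (-1.04, 0.0511).

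The 2 members that restrain the response differed strongly. Dusp1 (chr17:26505590-26562128, minus strand), a phosphatase that inactivates p38 and JNK MAP kinases, had 564 and 491 CPM in T cells after IL-5, 550 and 414 CPM in T cells after PBS, 1093 and 1680 CPM in microglia after IL-5, and 1515 and 1731 CPM in microglia after PBS. Its cell types did not overlap and its log2 fold change was -2.40 (SE 0.236, edgeR adjusted p = 0.000223). Zfp36 (chr7:28376784-28380253, minus strand), which encodes tristetraprolin, had 622 and 292 CPM in T cells after IL-5, 290 and 481 CPM in T cells after PBS, 2985 and 2781 CPM in microglia after IL-5, and 2455 and 2964 CPM in microglia after PBS. The highest T cell library was far below the lowest microglial one. Its log2 fold change of -3.59 (SE 0.344, edgeR adjusted p = 0.000195) was the largest of the 10.

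**Figure D3:**
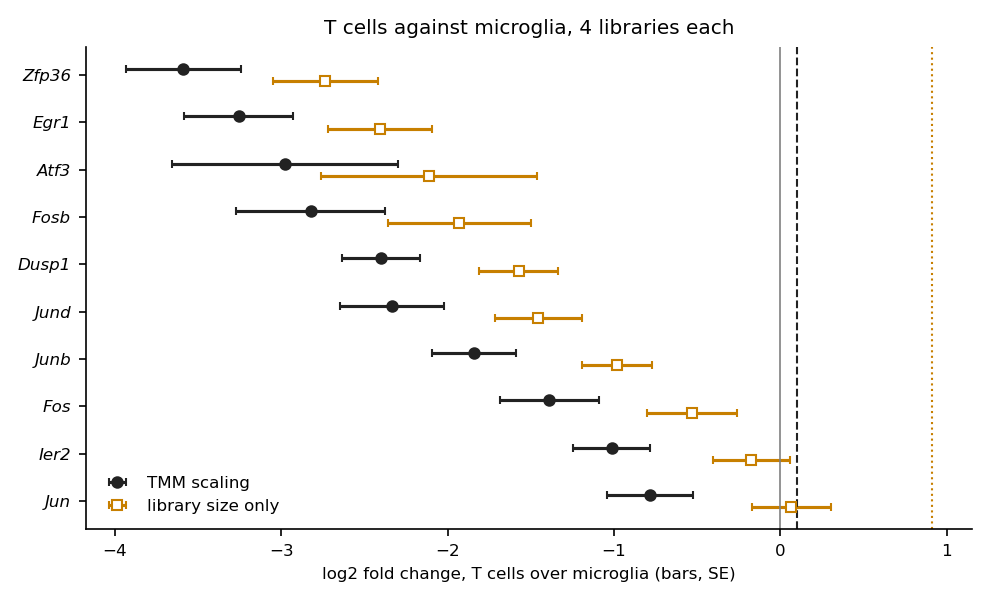
Log2 fold change of each member in T cells over microglia (4 libraries each, bars give the standard error), with TMM scaling as filled circles and library size only as open squares. The vertical lines mark 0 (solid) and the median of all 15397 genes under TMM (dashed, 0.10) and under library size (dotted, 0.91). All 10 members lay left of both medians, and Jun moved from -0.79 to 0.07.

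How many members were called depended on the scaling and on the libraries used. After TMM scaling all 10 lay below microglia with no overlap between the libraries, where 16.3% of genes did so, and in unscaled CPM 7 did, where 8.14% of genes did so. Library size alone moved the median of all genes from 0.10 to 0.91 and left 7 members called. The share of all genes called at that setting is not reported here, so these 7 have no background beside them. Relative to the median of all genes, the median of the members was -2.47 with TMM and -2.42 with library size. PBS mice alone and IL-5 mice alone each called 6 members, where they called 1151 and 1324 of 15397 genes. Junb, Jund, Egr1, Dusp1 and Zfp36 were called under every alternative tried. How many of all genes were called under every alternative was not counted, so this does not set the members apart from other genes. The neutrophil genes given above moved with this contrast, at 0.757 to 38.7 CPM in T cells and 13682 to 17691 CPM in microglia in sum, with 9 of the 10 markers called lower in T cells, and their part in the levels of the immediate early genes was not tested.

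Genes that act around the members differed between the cell types in both directions, and the counts of each list stand beside 19.5% of all genes called, 1148 higher and 1851 lower of 15397. Of 31 other rapidly induced genes tested, 3 were higher and 10 lower in T cells, with a median log2 fold change of -0.49. The 4 with the smallest p were Rhob (-4.59, SE 0.316), which encodes a small GTPase, Ier5 (-3.15, SE 0.257), Btg2 (-2.20, SE 0.255), an inhibitor of proliferation, and Sgk1 (-1.72, SE 0.215), a kinase induced by serum and glucocorticoids. Of 14 other leucine zipper partners of AP-1, 0 were higher and 4 lower, among them Maf (-3.36, SE 0.424), a factor of macrophages and T cells, Batf3 (-9.18, SE 1.35), a factor of dendritic cell development, and the small Maf gene Mafg (-2.70, SE 0.407). Of 25 MAP kinases and factors upstream, 2 were lower, Mapk3 (-1.86, SE 0.265), which encodes ERK1, and Mapkapk2 (-1.89, SE 0.358), the kinase that phosphorylates tristetraprolin. The list median was 0.02, and its 2 calls of 25 were a smaller share than that of all genes.

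Among 8 other MAP kinase phosphatases tested, Dusp6 (-2.97, SE 0.252) and Dusp7 (-2.76, SE 0.385) were lower in T cells, and Dusp2 (1.83, SE 0.326) and Dusp5 (2.17, SE 0.588) were higher. Thus phosphatases other than Dusp1 went both ways. Of 13 genes related to Zfp36 or to deadenylation, 3 were higher and 2 lower: the relative Zfp36l1 (-1.70, SE 0.271) and the deadenylase gene Cnot8 (-1.43, SE 0.324) were lower, and the deadenylase subunits Cnot1 (2.02, SE 0.351) and Cnot10 (2.18, SE 0.466) were among the higher. Heat shock genes, a second group known to respond to cell isolation, lay mostly on the other side of 0 from the members: 3 of 10 were higher in T cells and 1 lower, with a median of 0.54. Hspa8 (1.94, SE 0.260), Hsp90ab1 (1.50, SE 0.261) and Hsph1 (1.87, SE 0.372), chaperone genes, were higher, and Hspe1 (-2.04, SE 0.324), a mitochondrial chaperonin gene, was lower. All genes named here were called by edgeR with an adjusted p of at most 0.0298.

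Microglia after IL-5 were then set against microglia after PBS. None of the 10 members passed the threshold, and 0% of 13764 genes did so by edgeR. At an unadjusted p under 0.05 edgeR counted 0 members and 617 genes (4.48%), and DESeq2 called 0 members and 67 genes (0.487%). The median log2 fold change of the members was -0.12, against -0.02 over all genes.

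Fosb had the largest difference, with 139 and 54.5 CPM after IL-5 and 40.4 and 49.9 CPM after PBS. Both IL-5 libraries exceeded both PBS libraries, which 17.5% of genes also did after TMM scaling and 15.0% in CPM, and replicate 1 stood 2.55-fold above replicate 2. The log2 fold change was 1.34 (SE 0.618, edgeR adjusted p = 0.964). Jund followed at 0.81 (SE 0.525, adjusted p = 0.974, edgeR), with 1858 and 1059 CPM after IL-5 and 827 and 1110 CPM after PBS, where only replicate 1 stood above both PBS libraries. Both values rested on microglia IL-5 replicate 1, the library that stood apart: without it they were 0.25 for Fosb and 0.11 for Jund. Without replicate 2, which leaves that library alone against the PBS pair, they were 1.96 and 1.28. The edgeR adjusted p of 0.0169 and 0.0200 there take their spread from the PBS pair only and assume that the lone library varies like it, so they compare 1 library and not the treatment.

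Ier2 and Jun lay on the other side. Ier2 had 232 and 279 CPM after IL-5 and 424 and 529 CPM after PBS, a log2 fold change of -0.75 (SE 0.382, edgeR adjusted p = 0.964). Jun had 891 and 867 CPM after IL-5 and 1335 and 1630 CPM after PBS, a log2 fold change of -0.58 (SE 0.417, edgeR adjusted p = 0.983). For both genes the 2 IL-5 libraries were below the 2 PBS libraries, which 21.1% of genes also were after TMM scaling, and leaving out any 1 library kept the sign, with ranges of -0.90 to -0.59 for Ier2 and -0.79 to -0.40 for Jun. In unscaled CPM Fos, Egr1 and Atf3 were also below in both IL-5 libraries, which made 5 members where 23.1% of genes lay below, and after TMM scaling those 3 overlapped.

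The remaining 6 members, Fos, Junb, Egr1, Atf3, Dusp1 and Zfp36, had log2 fold changes from -0.31 for Atf3 to 0.26 for Zfp36, with standard errors of 0.395 to 0.447. Of the other lists, 0 genes passed. All 10 heat shock genes had values above 0, as 49% of all genes did, with a median of 0.57, a maximum of 1.08 (SE 0.533) for Hspe1 and 0.65 (SE 0.394) for Hsp90aa1, and 0 of them had an unadjusted p under 0.05. In sum they stood at 3273 and 2156 CPM after IL-5 and 1881 and 2346 CPM after PBS, so that replicate 1, the library that stood apart, was above both PBS libraries and replicate 2 lay between them.

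Marker lists also moved with this comparison. The microglial markers summed to 13188 and 20365 CPM after IL-5 and 26304 and 25659 CPM after PBS, with 9 of 12 below 0, a median log2 fold change of -0.40 and 7 of 12 wholly below. Of all genes tested, 51% were below 0 and 21.1% lay wholly below after TMM scaling. The 5 oligodendrocyte markers were all below 0, with a median of -1.15. The 5 B cell markers, led by Cd79a at 74.4 to 208 CPM in microglia, were all above 0, with a median of 1.18, and 7 of 8 choroid plexus markers were above 0, with a median of 0.54. None of these genes passed the threshold by edgeR, and the part of these shifts in the members' levels was not tested.

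T cells after IL-5 were set against T cells after PBS in the same way. None of the 10 members passed, 0% of 13897 genes did so by edgeR, and for 10 of 10 members the groups overlapped, where 18.1% of genes lay wholly above and 17.3% wholly below. At an unadjusted p under 0.05 edgeR counted 0 members and 600 genes (4.32%), and DESeq2 called 0 members and 658 genes (4.73%). The log2 fold changes ran from -0.21 (SE 0.462) for Egr1 to 0.34 (SE 0.357) for Fos, with a median of 0.09, against -0.01 over all genes.

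For every member the fold in CPM between the 2 IL-5 libraries of T cells exceeded the fitted fold between the treatments. Replicate 1 was the highest T cell library for 6 members, Fos, Egr1, Atf3, Ier2, Dusp1 and Zfp36, and replicate 2 was the lowest for 5, Fos, Jun, Junb, Egr1 and Atf3. The replicates differed 2.13-fold for Fos and for Zfp36, 2.40-fold for Egr1, 1.60-fold for Jun and 12.7-fold for Atf3, where replicate 1 held 2804 counts and replicate 2 held 196. The PBS replicates of T cells differed at most 1.66-fold, for Zfp36. Leaving out T cells IL-5 replicate 2 took Atf3 to 0.76, and leaving out replicate 1 took it to -2.93.

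Marker lists moved with the treatment in T cells as well. The T cell markers summed to 4659 and 5537 CPM after IL-5 and 7047 and 7749 CPM after PBS, with 10 of 12 below 0, a median log2 fold change of -0.46, 9 of 12 wholly below and 4 at an unadjusted p under 0.05. The choroid plexus markers summed to 111580 and 114680 CPM after IL-5 and 82865 and 58274 CPM after PBS, with all 8 above 0, a median of 0.90, 7 of 8 wholly above and 6 at an unadjusted p under 0.05. Of all genes tested, 50.8% were below 0, 17.3% lay wholly below and 18.1% wholly above. By edgeR, 4.32% of them had an unadjusted p under 0.05. The 5 B cell markers were also all above 0, with a median of 1.06. None of these genes passed the threshold by edgeR, and their part in the members' levels was not tested.

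**Figure D4:**
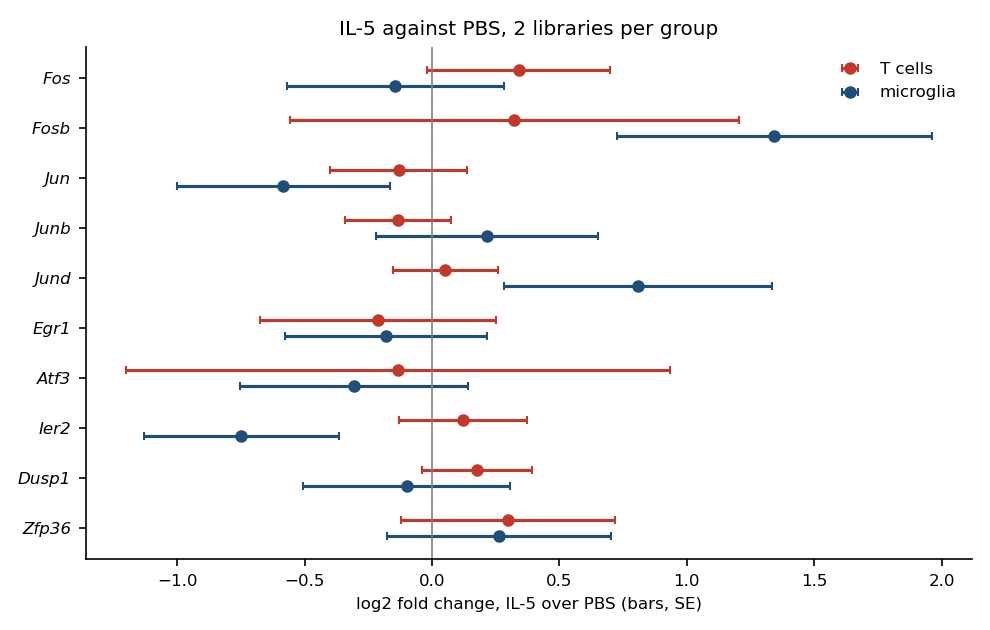
Log2 fold change of each member after IL-5 over PBS, in T cells (red) and microglia (blue), from fits of 2 libraries per group with bars for the standard error. Fosb in microglia (1.34) was the largest value, and no member passed the threshold in either cell type.

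The responses of the 2 cell types to IL-5 were compared directly with an interaction contrast over all 8 libraries. None of the 10 members passed, and 0% of 15397 genes did so by edgeR, with 0 members and 796 genes (5.17%) at an unadjusted p under 0.05 and 0 members and 187 genes (1.21%) called by DESeq2. The largest differences, T cells minus microglia, were -1.08 (SE 0.839) for Fosb, 0.82 (SE 0.460) for Ier2 and -0.81 (SE 0.598) for Jund. Standard errors of this size leave differences of several fold undetected, so the responses are not shown to be alike.

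Across the libraries of a cell type, the members lay at different distances from their own mean profile. Each member is part of that mean, and whether the members moved together more than other genes was not tested. When log2 CPM after TMM scaling was centred within each cell type, the mean of the 10 members stood at 0.38 in T cells IL-5 replicate 1, -0.44 in T cells IL-5 replicate 2, -0.12 in T cells PBS replicate 1 and 0.17 in T cells PBS replicate 2. In microglia it stood at 0.34 in IL-5 replicate 1, -0.30 in IL-5 replicate 2, -0.12 in PBS replicate 1 and 0.07 in PBS replicate 2. On this scale IL-5 held the highest and the lowest library in both cell types. In unscaled CPM the members of microglia summed highest in PBS replicate 2, at 12912, against 11708 in IL-5 replicate 1. There PBS replicate 2 was the highest microglial library for 6 members and IL-5 replicate 1 for 4. Junb kept closest to this mean profile, at a root mean square distance of 0.129 on the log2 scale, followed by Fos at 0.144, Egr1 at 0.182 and Zfp36 at 0.185. Atf3 at 0.812 and Fosb at 0.580 departed most, Atf3 through T cells and Fosb through microglia IL-5 replicate 1.

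**Figure D5:**
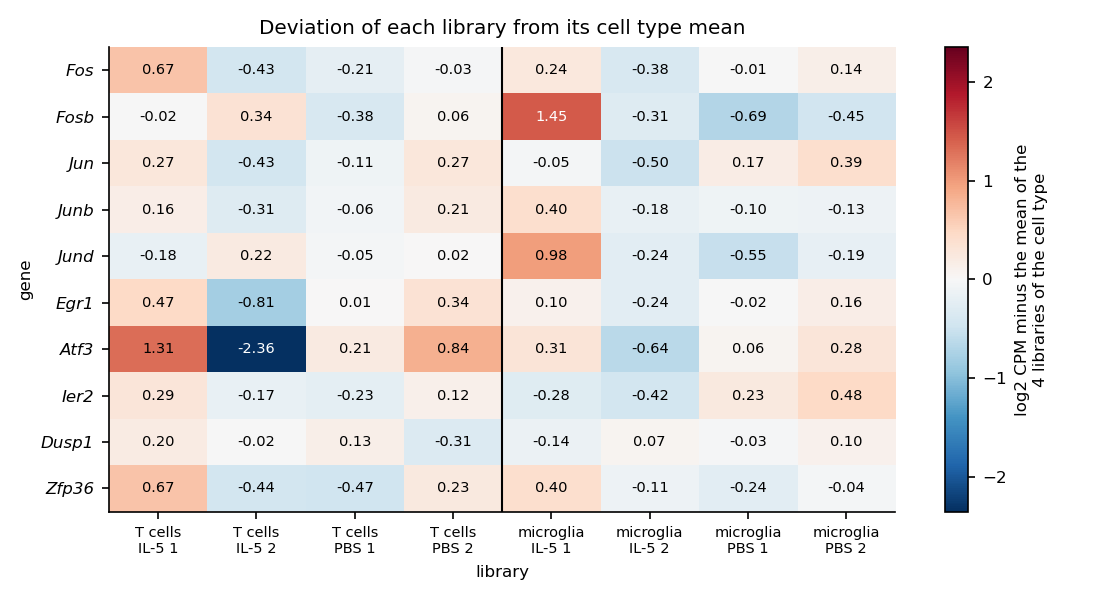
Deviation of each member in each library from the mean of the 4 libraries of its cell type, on the log2 CPM scale after TMM scaling, with T cells to the left of the line. Red is above and blue below that mean. Atf3 spans 1.31 to -2.36 in the T cells after IL-5, and Fosb reaches 1.45 in microglia IL-5 replicate 1.

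Among 15387 other tested genes, those whose centred profile over the 8 libraries lay closest to the members' mean were Ehmt1 at 0.115, Ppp4r2 at 0.119, Dalrd3 at 0.125, Klf6 at 0.126 and Arhgap5 at 0.126, as root mean square log2 differences. Klf6, a zinc finger gene that is itself rapidly induced, had 745 and 546 CPM in T cells after IL-5, 663 and 785 CPM in T cells after PBS, 503 and 532 CPM in microglia after IL-5, and 492 and 607 CPM in microglia after PBS. Klf6 and the other genes named here were picked by this closeness in the same libraries, so a pattern shared with the members is no separate support.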

How the data were processed

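RNA from sorted brain T cells and microglia was sequenced in 8 libraries. The deposited values are unscaled whole-number counts per gene in 1 table. The submitters' processing notes list STAR 2.5.3a, bcl2fastq 2.20.0.422, Cufflinks 2.0, FastQC 1.0.0 and DESeq2 1.1, and the builds GRCm38 and mm10. The counting tool and its strand setting are not given in the sources used here. The 2 summary entries, namely reads outside genes at 15.2% to 25.5% and ambiguous ones at 1.39% to 1.77%, did not enter library sizes, and 27 genes with 53 unreadable cells, 26 of them with names turned into dates, were left out.

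CPM is the count per 1000000 gene counts. TMM-scaled counts were tested in R 4.3.3 by quasi-likelihood in edgeR 4.0.16, after filterByExpr with a minimum count of 10, which all 10 members passed. Tests were two-sided with Benjamini-Hochberg adjustment over all genes tested and a threshold of 0.05. The IL-5 effect was fitted within each cell type, while T cells against microglia and the difference of the responses used a fit of all 8 libraries. These comparisons share libraries. The code was tested on simulated data. Profiles used log2 CPM with a prior count of 2. Floors of 3 counts (0.0986 to 0.128 CPM) cover counting error only, and PCR copies were not marked by molecular identifiers. The SD and SE values also take in the spread between libraries.

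Coordinates, exon lengths and untranslated regions came from GENCODE M21 on GRCm38, and promoters from RefSeq on GRCm38.p6, scanned with Python 3.11.15. Bases inside annotated exons were trimmed from the windows shown, except for Zfp36, whose CArG box and flanks lie inside its annotated exons.

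The members, the 6 other gene lists and the 12 marker lists were chosen with earlier results of these data known. Named are all members, and from each other list up to 4 genes past the threshold by smallest p or, where none passed, the 2 with the smallest p, and for the difference of responses only those with an unadjusted p under 0.05. Also named are the 5 genes nearest in profile and the most abundant gene of a marker list. Some genes that this rule names are not reported here. Alternatives were DESeq2 1.42.0, RLE or library-size scaling, scaling to the cell type's markers, no filter or a filter at 5 CPM in 2 libraries, a replicate block, 1 joint fit for the IL-5 effects, 1 treatment only, and each library left out.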

Additional observations from a re-analysis of the deposited data

How the results depend on the processing

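Of the log2 fold changes of the members under the alternatives, 469 kept their direction and their side of the threshold under an alternative, 43 turned direction, 23 lost a call and 5 gained one. The counts of calls are given by comparison. In T cells against microglia, DESeq2 called 4760 genes and all 10 members, against 2999 genes and 9 members by edgeR. PBS mice alone gave 1151 genes, IL-5 mice alone 1324 and the replicate block 1234, each with 6 members. Leaving out 1 library gave 1986 to 3634 genes and 6 to 9 members, the fewest genes without T cells IL-5 replicate 1. Library size alone called 7 members, reversed Jun (0.066) and put 76.3% of its calls higher, against 38.3% with TMM.

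In microglia after IL-5, DESeq2 called 67 genes and leaving out 1 library gave 0 to 1255 genes and 0 to 2 members, the most without IL-5 replicate 2, where the IL-5 arm was the 1 library that stood apart. Scaling to microglial markers moved the median of all genes to 0.35 and reversed Fos (0.24), Egr1 (0.20), Atf3 (0.085) and Dusp1 (0.27). Leave-one-out values that changed sign ran from -0.071 to 0.46 for Junb, -0.23 to 0.028 for Dusp1, -0.45 to 0.11 for Fos and -0.82 to 0.077 for Atf3.

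In T cells after IL-5, DESeq2 called 658 genes, and no filter or 1 fit of all 8 libraries gave 2. Leaving out 1 library gave 0 to 1 genes. Scaling to T cell markers moved the median of all genes to 0.33 and reversed Jun (0.24), Junb (0.23), Egr1 (0.17) and Atf3 (0.29). Leave-one-out values that changed sign ran from -0.32 to 0.79 for Fos, -0.53 to 0.17 for Jun, -0.39 to 0.076 for Junb, -0.16 to 0.23 for Jund, -0.996 to 0.29 for Egr1, -2.93 to 0.76 for Atf3, -0.14 to 0.33 for Ier2, -0.024 to 0.41 for Dusp1 and -0.37 to 0.75 for Zfp36.

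For the difference of the responses, DESeq2 called 187 genes, no filter 31, and leaving out 1 library 0 to 232, the most without microglia IL-5 replicate 2. Library size reversed Egr1 (0.079) and Zfp36 (0.16), and the replicate block reversed Atf3 (-0.71). Leave-one-out values that changed sign ran from -1.70 to 0.062 for Fosb, -0.23 to 0.93 for Fos, -0.86 to 0.46 for Egr1, -2.68 to 1.06 for Atf3 and -0.68 to 0.47 for Zfp36. The causes of these changes were not tested.

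The labels do not say whether replicate numbers pair the samples. Within a cell type, the replicate differences after IL-5 and after PBS correlated over genes at 0.0101 in microglia and 0.0111 in T cells. Whether T cell and microglial libraries of the same treatment and number came from the same mice was not tested. The replicate block called 0 members in the IL-5 comparisons. With 2 libraries per group and replicate correlations of log2 CPM of 0.753 to 0.815, a missed threshold does not show that a member was unaffected by IL-5.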

Other observations

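Outside the members, the levels of the gene lists that act around them are given for the IL-5 comparisons, where 0 of their genes passed the threshold by edgeR in either cell type or in the difference. In T cells after IL-5 the medians of the log2 fold changes were -0.05 for 30 other rapidly induced genes, 0.00 for 12 leucine zipper partners, -0.14 for 25 MAP kinases and upstream factors, -0.18 for 7 phosphatases, -0.12 for 13 genes of deadenylation and -0.05 for 10 heat shock genes. The smallest p in each list belonged to Cyr61 (-1.02, SE 0.363) and Nr4a2 (1.09, SE 0.537), Mafk (1.95, SE 1.08) and Atf2 (-0.56, SE 0.427), Map2k1 (-0.86, SE 0.272) and Mapk9 (-0.91, SE 0.316), Dusp7 (-1.17, SE 0.686) and Dusp10 (-0.65, SE 0.546), Cnot7 (1.31, SE 0.389) and Cnot6l (-0.50, SE 0.339), and Hspa1a (-0.49, SE 0.230) and Dnajb1 (-0.54, SE 0.319).

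In microglia after IL-5 the medians were 0.06 for 30 other rapidly induced genes, -0.09 for 14 leucine zipper partners, 0.13 for 25 MAP kinases and upstream factors, -0.12 for 7 phosphatases and -0.09 for 13 genes of deadenylation. Among the genes with the smallest p were Ier3 (1.04, SE 0.564) and Plk3 (-1.26, SE 0.698), Atf4 (-0.76, SE 0.380), Mapkapk2 (-0.91, SE 0.372) and Map2k4 (1.41, SE 0.651), Dusp2 (0.87, SE 0.563) and Dusp7 (-0.45, SE 0.424), and Pabpc1 (0.97, SE 0.600) and Cnot7 (-0.82, SE 0.524). In the difference of the responses, Map2k4 (-2.24, SE 0.803) and Cnot7 (2.09, SE 0.693) had an unadjusted p under 0.05 and an edgeR adjusted p of 0.902.

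The marker lists of other cells were summed in CPM. Monocyte and border macrophage markers stood at 515 to 663 in T cells and 354 to 421 in microglia, and B cell markers at 99.0 to 232 in T cells and 117 to 291 in microglia. Astrocyte markers stood at 146 to 294 in T cells and 110 to 213 in microglia, oligodendrocyte markers at 1256 to 2191 in T cells and 194 to 652 in microglia, and endothelial markers at 743 to 1484 in T cells and 454 to 693 in microglia. Neuronal markers stood at 4.52 to 37.9 in T cells and 23.6 to 35.0 in microglia, NK cell markers at 49.2 to 132 in T cells and 0 to 21.7 in microglia, and erythroid markers at 0.0670 to 102 in T cells and 7.07 to 23.6 in microglia. The 4 globin genes among the 5 erythroid markers were listed at 0 in all 8 libraries. The most abundant genes were Ly6c2 of the monocyte and border macrophage list, Cd79a of the B cell list, Aldoc of the astrocyte list, Cldn5 of the endothelial list, Snap25 of the neuronal list, Eomes of the NK cell list and Alas2 of the erythroid list.

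Microglia IL-5 replicate 1 listed the same count, 5467, for Atf3 and for Ier2.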
